A study of Mus musculus with 2 samples.

Results

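The genes described here are 8 components of hemidesmosomes and of the skin basement membrane: Col17a1, Dst, Plec, Lama3, Lamb3, Lama5, Lamb1 and Lamc1. They were chosen by symbol, and all 8 were found among the 31053 genes of the feature table. Their unique molecular identifiers (UMIs, counts of captured RNA molecules) were followed across the cell types of mouse back skin and between a mouse with raised miR-205 and a control mouse. The rule used no measured value, though earlier results of these data were known when the members were chosen.

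Back skin of 1 control and 1 miR-205 inducible mouse was dissociated at postnatal day 53, and 1 single-cell RNA-seq library was made from each. In the inducible mouse a keratin 14-driven reverse tetracycline transactivator switches on a pTRE2-miR-205 transgene, which was made in FVB mice, so induction is directed to the basal epithelium. Both mice carried the Krt14-H2b-GFP reporter, were matched for sex and are listed as C57BL/6. Doxycycline chow was given for 4 days from day 49. The extraction text says that both mice received it, whereas the sample description calls the control untreated, and no further genotype is given for the control. Cells were sorted on surface proteins and the reporter into epidermis, follicle and dermis and pooled at 3:5:2, a ratio that sets how much of each compartment was loaded.

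Basal keratinocytes are held to the dermis by hemidesmosomes. On the inside, plectin (Plec) and the epithelial form of dystonin (Dst, BP230) tie keratin filaments to the plaque. Collagen XVII (Col17a1, BP180) and the integrin α6β4 (Itga6, Itgb4) cross the membrane and reach the basement membrane. There the main ligand is laminin-332, whose α3 and β3 chains are encoded by Lama3 and Lamb3. Laminin-511 (Lama5, Lamb1, Lamc1) lies in the same sheet and is known for its part in hair follicle growth. Collagen XVII is known for keeping hair follicle stem cells in place.

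Since miR-205 was the perturbation, its sequence and the positions it could pair with are shown first. The mature strand is encoded on the minus strand of chromosome 1 at chr1:193507503-193507524 (GRCm38.p6), and its sequence here is taken from RefSeq. The capitals mark the seed, bases 2 to 8.
mmu-miR-205-5p: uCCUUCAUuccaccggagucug
The 7 letters that pair with this seed, ATGAAGG, were searched on the sense strand of every annotated 3′ UTR of the members (GENCODE vM1, build NCBIM37). Among the members, Lamc1 alone held a match. It lies at chr1:155068227-155068233 on the minus strand of NCBIM37, 370 bases into a 3′ UTR of 2551 bases. The match is shown in capitals with its flanks.
Lamc1 3′ UTR site: ctcatgtttctATGAAGGaaatctttggc
Of all 20007 genes with an annotated 3′ UTR, 10.3% held the 7 letters in the longest one, and of the 2343 genes with a UTR within 20% of the Lamc1 length, 20.1% did. For Dst the annotated UTRs reach 1058 bases and for Col17a1 882 bases, and no match was found in these windows. Of 38 other basement membrane genes with a UTR, 5 held the letters (Col18a1, Col4a6, Egflam, Itga6 and Smoc2). A match describes letters only and shows no binding.

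There were 55465594 UMIs over 4545 barcodes in the control and 49733560 over 4264 in the induced library. After the study's filter, 3936 and 3628 cells remained, with medians of 12198.5 and 11752.5 UMIs and of 4.94% and 4.95% mitochondrial UMIs. Both libraries held 11 barcodes in common, 5 of them among kept cells. Clustering without the members gave 26 clusters, of which 18 could be named from markers, and 23 held at least 20 cells in each library. Names carry "-like" because they rest on markers. Cluster 1, called HF-SC-like after the hair follicle stem cells of the outer bulge, held 327 control and 292 induced cells and was led by Krt24. Cluster 19, of 28 and 57 cells, met the same rule. The hair germ-like cluster, number 7, held 199 and 210 cells with Lgr5, Cdh3, Gli1 and Lef1 raised, but not Cux1 and Hopx of the same list. The interfollicular epidermis (IFE) basal-like cluster, number 0, held 588 and 354 cells. Of its marker list Krt5, Krt14, Thbs1, Ly6a, Igfbp3 and Epgn were raised there, but not Trp63 and Cxcl14. The dermal papilla-like cluster met the rule without Corin among its raised markers. With 1 library per group there is no replicate check and no test, and every interval below covers counting error only.

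Col17a1 (chr19:47646341-47692042, GRCm38.p6) followed the attached epithelium. Its level, in counts per 1000000 UMIs of the population (CPM), was highest in the second HF-SC-like cluster, at 1610 in the control and 1896 in the induced library. The main HF-SC-like cluster followed at 1483 and 1477, then cluster 13 (unnamed, led by Col4a4, Hhip and Pthlh) at 1153 and 1055. IFE basal-like cells stood at 901 and 954, inner bulge-like cells at 747 and 657, and hair germ-like cells at 663 and 550. These first 3 populations were each apart from the next in both libraries, while IFE basal-like cells overlapped cluster 14. IFE suprabasal-like cells, which have left the basement membrane, still held 435 and 385 CPM. The upper hair follicle-like clusters were low, with 149 and 137 in cluster 5 and 23.7 and 51.2 in cluster 6, and fibroblast-like cells held 38.1 and 28.5. In fibroblast-like cells 89.3% and 84.9% of those UMIs came from 5 cells in each library.

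After thinning every cell to 5000 UMIs, 100% of control and 99.6% of induced HF-SC-like cells held a Col17a1 UMI, against 5.31% and 3.38% of fibroblast-like cells, which should lack the gene. Median depth before thinning was 9993 and 10272.5 UMIs in HF-SC-like and 11278.5 and 11109 in fibroblast-like cells. Without thinning the HF-SC-like cells carried a median of 14 Col17a1 UMIs in both libraries, with a range of 1 to 43 in the control and 2 to 60 in the induced library. Detection in HF-SC-like cells was thus near its ceiling. Within them a difference in this gene could show in UMIs per cell but hardly in the share of cells.

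Dst (chr1:33907888-34308662) was spread more evenly. The 3 highest populations were cluster 13 with 604 and 625 CPM, the second HF-SC-like cluster with 566 and 655, and the main HF-SC-like cluster with 682 and 507, and they overlapped one another. Cluster 16 (unnamed, led by Ifnk and Plin2) held 480 and 566 CPM of Dst, against 159 and 144 of Col17a1. Dermal papilla-like cells held 252 and 305 CPM and Schwann-like cells, of which there were only 13 and 21, held 505 and 609. No Dst UMI was seen in the 29 and 28 T cell-like cells, where the upper bounds were 28.0 and 25.9 CPM. The gene has epithelial, muscle and neural isoforms with different 3′ ends, and counts per gene merge them.

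Plec (chr15:76170974-76231378) was highest outside the epithelium. Dermal papilla-like cells held the most, at 379 and 437 CPM, and macrophage-like cells came next at 284 and 277. Both stood apart from what followed. Hair germ-like cells held 243 and 215, fibroblast-like cells 198 and 226, and HF-SC-like cells 159 and 175. The 21 and 39 sebaceous gland-like cells held 19.2 and 9.60, while cells gated on sebaceous marker UMIs, which may be of another population, held more (below). Among the 22 pairs of neighbours in the Plec order, 4 were apart in both libraries, against 9 of 22 for Col17a1.

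Lama3 was highest in HF-SC-like cells, at 227 CPM in the control and 174 in the induced library. Hair germ-like cells followed at 172 and 130, and cluster 13 at 143 and 97.9. IFE basal-like cells held 78.6 and 76.5. Fibroblast-like cells held 5 and 6 UMIs in all, or 3.41 and 3.23 CPM. Lama3 was thus highest in 3 populations ahead of IFE basal-like cells. Melanocyte-like cells held 5 and 6 UMIs, or 56.2 and 33.6 CPM.

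Lamb3 (chr1:193294353-193343878, ending 163585 bases from Mir205 on the same chromosome) had another order. Its highest values were 347 and 462 CPM in the second HF-SC-like cluster, 253 and 325 in the main one and 263 and 310 in cluster 13. IFE basal-like cells held 206 and 239 CPM and inner bulge-like cells 183 and 203. Hair germ-like cells, second for Lama3, were twelfth for Lamb3 at 108 and 133. The ratio of Lama3 to Lamb3 UMIs was taken in the 16 populations with at least 10 UMIs of each chain in each library. Among these it ran from 0.115 in control inner bulge-like cells to 1.59 in control hair germ-like cells. Both chains pass through the same libraries, so this ratio does not depend on the total UMIs of a population.

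Lama3 and Lamb3 were found together in the same cell in 35.9% of thinned control HF-SC-like cells (111 of 309, 95% Clopper-Pearson interval 30.6 to 41.5%) and in 30.9% of induced ones (87 of 282, 25.5 to 36.6%). In IFE basal-like cells the shares were 20.9% and 18.3%, and in hair germ-like cells 16.8% and 14.1%. No fibroblast-like cell held both, of 113 and 148 thinned cells, which allows a share of up to 2.65% and 2.03%. The induced share was the lower one in each of these 3 epithelial populations, and the intervals overlapped in all of them.

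Lama5 (chr2:180176373-180225904), the α5 chain, was low in all 23 populations with at least 20 cells per library. Cluster 13 held 33.5 and 53.1 CPM, hair germ-like cells 28.9 and 34.5, HF-SC-like cells 17.0 and 29.1, and IFE basal-like cells 15.5 and 16.8. Fibroblast-like cells held 2.04 and 3.23. Of the 22 neighbour pairs, 19 were not apart, so the order within the epithelium is not resolved at this depth.

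Lamb1 (chr12:31265146-31329644), the β1 chain, was highest in dermal cells and, within the epithelium, in the hair germ-like cluster. Fibroblast-like cells held 68.1 and 92.5 CPM, dermal papilla-like cells 42.3 and 53.8, and hair germ-like cells 38.03 and 45.9. The 13 and 21 Schwann-like cells, too few for the order, held 149 and 332.2 CPM. HF-SC-like cells held 8 and 14 UMIs, or 2.43 and 4.64 CPM. No Lamb1 UMI was found in the inner bulge-like cluster, in cluster 2 or 3, or in upper hair follicle-like cluster 6, where the upper bounds ranged from 0.761 to 2.89 CPM. In thinned hair germ-like cells 15.2% (control) and 18.5% (induced) held a UMI, against 0 of 258 and 0 of 211 cells of upper hair follicle-like cluster 5, which allows a share of up to 1.16% and 1.42%. Median depth there was 12788 and 14322 UMIs, against 11009 and 12023.5 in hair germ-like cells.

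Hair germ-like cells were also split by whether they held a UMI of 13 fibroblast, pericyte and smooth muscle markers. The 121 control cells without one held 36.3 CPM of Lamb1 and the 119 induced cells 40.5, against 40.3 and 51.8 in the cells with one.

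Lamc1 (chr1:153218922-153332786), the γ1 chain, was highest in fibroblast-like cells at 142 and 164 CPM, then in dermal papilla-like cells at 40.8 and 61.0. IFE basal-like cells held 28.4 and 30.8, hair germ-like cells 17.9 and 30.7, and HF-SC-like cells 13.7 and 20.9. A UMI was present in 54.9% and 48.0% of thinned fibroblast-like cells and in 7.12% and 10.6% of HF-SC-like cells.

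Across the 46 points (23 populations in 2 libraries), log2 levels of Col17a1, Lama3, Lamb3 and Lama5 moved together. Pearson's r lay between 0.76 and 0.90 for each of these 6 pairs. Lamb1 and Lamc1 went with each other (0.68) and not with Col17a1 (−0.12 and 0.07). The gene most like Col17a1 among all with at least 200 UMIs was Krt5, the basal keratin (0.95), followed by Itgb4 (0.94). For Lama3 it was Col17a1 (0.90), for Lama5 it was Itgb4 (0.88), and for Lamb3 it was Bcam (0.83), which encodes a laminin α5 receptor. For Lamb1 it was Col4a1 (0.87), a collagen IV chain, for Lamc1 Bmp1 (0.84), for Plec Atp8b2 (0.84) and for Dst Lpp (0.78). The points share libraries, so these values describe the pattern and carry no test.

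Cells were also set by marker UMIs in place of clusters. In 171 control and 255 induced cells with at least 2 UMIs of both Cd34 and Krt24, Col17a1 stood at 1431 and 1526 CPM, Lama3 at 194 and 162, and Dst at 684 and 544. Cells with at least 10 UMIs of both Col1a1 and Dcn held 42.5 and 16.8 CPM of Col17a1 and 69.5 and 88.3 of Lamb1. The sebaceous gate (at least 2 UMIs of both Scd1 and Mgst1, 70 and 82 cells) differed from the sebaceous gland-like cluster. It gave 58.7 and 48.2 CPM of Plec, against 19.2 and 9.60 in the cluster. For Dst it gave 484 and 500 against 250 and 246, and for Col17a1 137 and 120 against 21.6 and 21.6. The gated values lay nearer those of unnamed cluster 16 (69 and 75 cells). That cluster held 480 and 566 CPM of Dst, 159 and 144 of Col17a1 and 70.1 and 54.8 of Plec. Which clusters the gated cells came from was not tested. Among the classes that have such a gate, which leave out hair germ-like and IFE basal-like cells and the unnamed clusters, 7 of 8 members were highest in the same class by either way of setting cells. Plec was the exception, since no cell passed the dermal papilla gate.

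In HF-SC-like cells, Dst and Lama3 were lower in the induced library, and Lamb3, Lama5 and Lamc1 were higher, past 0.32 on the log2 scale and with an interval that leaves out no change. For Dst the levels were 682 and 507 CPM (log2 ratio −0.43, 95% exact interval −0.52 to −0.33). Lama3 went from 227 to 174 CPM (−0.38, −0.55 to −0.22). Lamb3, the partner chain of Lama3, rose from 253 to 325 CPM (0.36, 0.22 to 0.49). With a median-of-ratios size factor its log2 ratio was 0.31, just under the limit. Col17a1, the most abundant of the set in these cells, was level at 1483 and 1477 CPM (−0.01, −0.06 to 0.05).

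Plec changed from 159 to 175 CPM in these cells (0.14, −0.04 to 0.31). The laminin-511 chains were counted in few UMIs. Lama5 went from 56 to 88 UMIs (17.0 to 29.1 CPM, 0.77, 0.28 to 1.29) and Lamc1 from 45 to 63 (13.7 to 20.9 CPM, 0.61, 0.04 to 1.196). Lamb1 had 8 and 14 UMIs (0.90, −0.42 to 2.39), so its direction is not shown at this depth. In all, 2 of 8 members were lower by at least 0.32 on the log2 scale and 4 of 8 higher by as much, against 16.9% and 24.8% of the 9208 genes tested. With an interval that leaves out no change the counts were 2 and 3, against 8.24% and 10.2%. The members' median log2 ratio was 0.25 beside 0.05 for all genes tested, and it turned to −0.065 among cells with under 5% mitochondrial UMIs.

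Per cell, the lower Dst level showed at the quartiles too. Control HF-SC-like cells carried a median of 5 Dst UMIs, with 2.5 and 9 at the quartiles, and induced cells a median of 4, with 2 and 7. The 5 cells with most Dst held 8.42% and 8.50% of its UMIs. Lamb3 rose from a median of 2 to 3 UMIs. The smaller HF-SC-like cluster 19 did not show the lower Dst and Lama3 levels. There Dst went from 566 to 655 CPM (0.21, −0.11 to 0.54) and Lama3 from 10 to 40 UMIs (51.0 to 88.8 CPM, 0.75, −0.22 to 1.97), in only 28 and 57 cells. When both HF-SC-like clusters were summed the same counts of 2 lower and 4 higher members were found. Among cells with under 5% mitochondrial UMIs, which left 109 and 92, the log2 ratio of Dst was −0.74, of Lama3 −0.63, of Lamb3 0.13, and of Lama5 1.69.

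In hair germ-like cells, Lama3 was lower and Lamc1 higher in the induced library. Lama3 went from 172 to 130 CPM (393 to 352 UMIs, −0.40, −0.61 to −0.19) and Lamc1 from 17.9 to 30.7 CPM (41 to 83 UMIs, 0.77, 0.22 to 1.36). Lamc1 is the member with the miR-205 seed match shown above. Col17a1 was lower by less than this limit, from 663 to 550 CPM (−0.27, −0.37 to −0.17). Lamb3 rose from 108 to 133 CPM (0.30, 0.06 to 0.54). The Lama3 difference depended on which cells were taken: in a finer clustering, whose matching cluster kept 267 of the 409 cells, its log2 ratio was −0.10. It was also −0.10 with the members kept among the variable genes, and −0.16 among cells with under 5% mitochondrial UMIs.

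Dst (502 to 527 CPM, 0.07), Lama5 (28.9 to 34.5 CPM, 0.25) and Lamb1 (38.03 to 45.9 CPM, 0.27) had intervals that include no change. Plec went from 243 to 215 CPM (−0.17, −0.34 to −0.003), and this sign turned in the finer clustering (0.03). At the limit of 0.32, 1 member of 8 was lower and 1 higher, against 20.6% and 27.2% of 9102 genes, and both calls had intervals that leave out no change, against 10.3% and 12.3% of genes. The median over members was 0.16 and over all genes 0.03. In these cells the summed level of 6 pericyte and smooth muscle markers was 50.7 CPM in the control and 325 in the induced library, with Rgs5 and Pdgfrb at 0 in both, and that of 4 Merkel cell markers 7.00 and 61.1 CPM, with Krt20 and Atoh1 at 0 in both. The part of these in the result was tested only by leaving out the cells with fibroblast, pericyte or smooth muscle UMIs, which gave −0.62 for Lama3.

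In IFE basal-like cells Plec was the member that stood out. Its level was 146 CPM (139 to 154) in the control and 217 CPM (206 to 229) in the induced library, with a log2 ratio of 0.57 (0.47 to 0.68), and the median UMIs per cell went from 2 to 3. The share of thinned cells with a Plec UMI went from 46.7% to 59.9%. Lamb3 rose from 206 to 239 CPM (0.21, 0.12 to 0.31) and Dst from 257 to 290 CPM (0.17, 0.08 to 0.26), both by less than 0.32 on the log2 scale. Col17a1 went from 901 to 954 CPM (0.08, 0.04 to 0.13).

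Lama3 stayed at 78.6 and 76.5 CPM (−0.04, −0.21 to 0.13) in these basal cells. Lama5 (15.5 and 16.8 CPM) and Lamc1 (28.4 and 30.8 CPM) had intervals that include no change. Lamb1 had 36 and 12 UMIs (3.68 and 1.95 CPM, −0.87, −1.99 to 0.06). At the limit of 0.32, 1 member was lower and 1 higher, against 12.7% and 18.1% of 9909 genes. With an interval that leaves out no change, 0 were lower and 1 higher, against 6.37% and 8.99%. The median was 0.12 for the members and 0.02 for all genes.

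**Figure D1:**
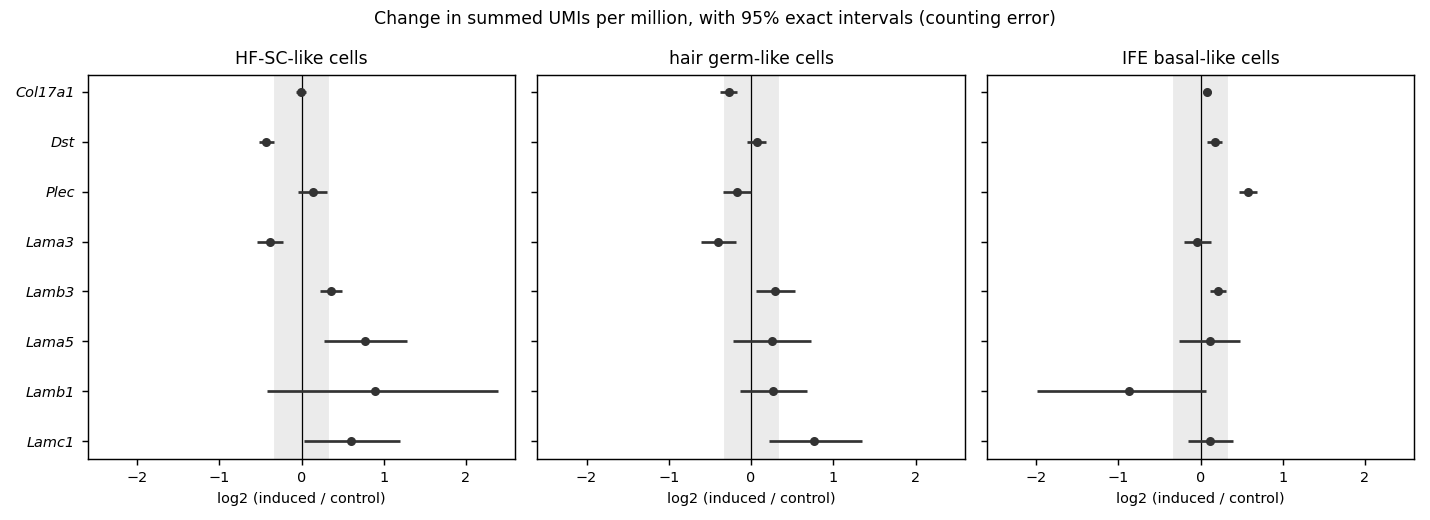
Log2 ratio of CPM, induced over control, for the 8 members in the 3 main populations, with 95% exact intervals; the grey band marks log2 ratios within 0.32. Lama3 lies left of the band and Lamb3 right of 0 in HF-SC-like and hair germ-like cells, Dst lies left of the band only in HF-SC-like cells, and Plec lies right of it only in IFE basal-like cells (0.57).

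RNAs of the α3 and β3 chains of laminin-332 moved in opposite directions in HF-SC-like and hair germ-like cells, but not in every population. The share of all genes or gene pairs that do so was not counted. Over 18 populations with at least 20 UMIs, Lamb3 had 1 interval wholly below no change and 6 wholly above, and Lama3, tested in 16, had 5 below and 2 above.

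A ratio of 2 genes within a library does not depend on its scaling. The gene ratios below were not planned. They reuse the same UMIs as the changes of the single genes, so they are no separate support for those changes. The ratio of Lama3 to Lamb3 UMIs in HF-SC-like cells went from 748 over 833 (0.898) to 526 over 980 (0.537), a log2 change of −0.74 (−0.96 to −0.53). In hair germ-like cells it went from 1.59 to 0.983 (−0.69, −1.02 to −0.37), with −0.34 and −0.36 in 2 other clusterings. In IFE basal-like cells it went from 0.382 to 0.321 (−0.25, −0.45 to −0.06). Over 16 populations with at least 10 UMIs of each chain in each library, 10 had a lower Lama3 to Lamb3 ratio after induction, 5 with an interval wholly below 0 and 0 above.

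The populations share the same pair of mice, so the 16 are not replicates. Cluster 13 went from 0.545 to 0.316 (−0.79, −1.23 to −0.34) and cluster 16 from 1.03 to 0.419 (−1.31, −2.49 to −0.13). The other 6 populations had a higher ratio after induction, each with an interval that includes 0. These were the inner bulge-like cluster and both upper hair follicle-like clusters (0.50 to 0.68 on the log2 scale), the second HF-SC-like cluster (0.39, −0.73 to 1.63), cluster 10 (0.43) and cluster 14 (0.08).

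The same was done for the plaque genes against Col17a1, in 20 populations. The ratio of Dst to Col17a1 in HF-SC-like cells went from 0.460 to 0.343 (−0.42, −0.53 to −0.31), while in hair germ-like cells it went from 0.757 to 0.958 (0.34, 0.19 to 0.49). HF-SC-like cells and upper hair follicle-like cluster 6 gave both of the intervals below 0, and 5 populations gave one above 0. The ratio of Plec to Col17a1 rose in IFE basal-like cells from 0.162 to 0.228 (0.49, 0.37 to 0.61) and in IFE suprabasal-like cells from 0.148 to 0.224 (0.60, 0.30 to 0.90), and 5 of the 20 intervals lay above 0 and 1 below.

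**Figure D2:**
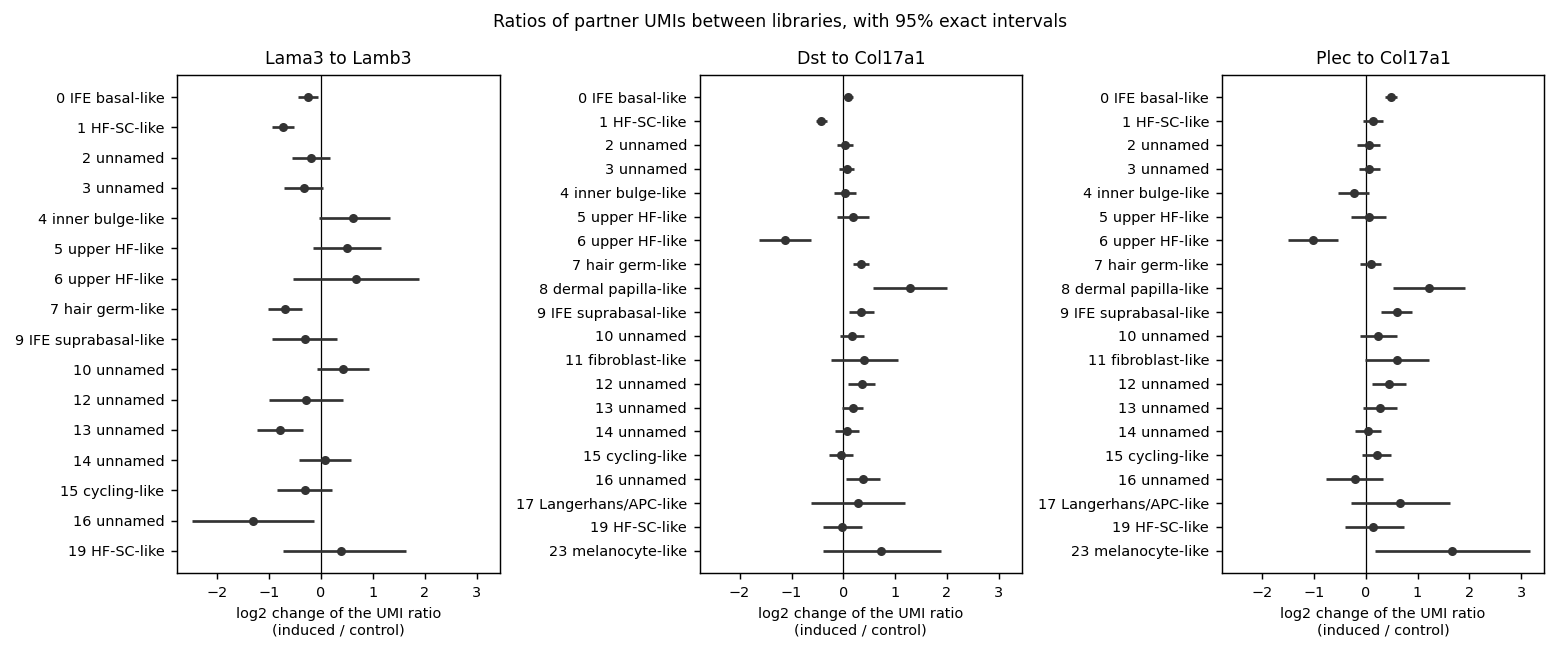
Log2 change, induced over control, of the UMI ratios Lama3 to Lamb3 (16 populations), Dst to Col17a1 and Plec to Col17a1 (20 populations each), in populations with at least 10 UMIs of both genes in each library, with 95% exact intervals. Lama3 to Lamb3 lies left of 0 in HF-SC-like (−0.74), hair germ-like (−0.69) and IFE basal-like cells (−0.25), and Plec to Col17a1 lies right of 0 in IFE basal-like cells (0.49).

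**Figure D3:**
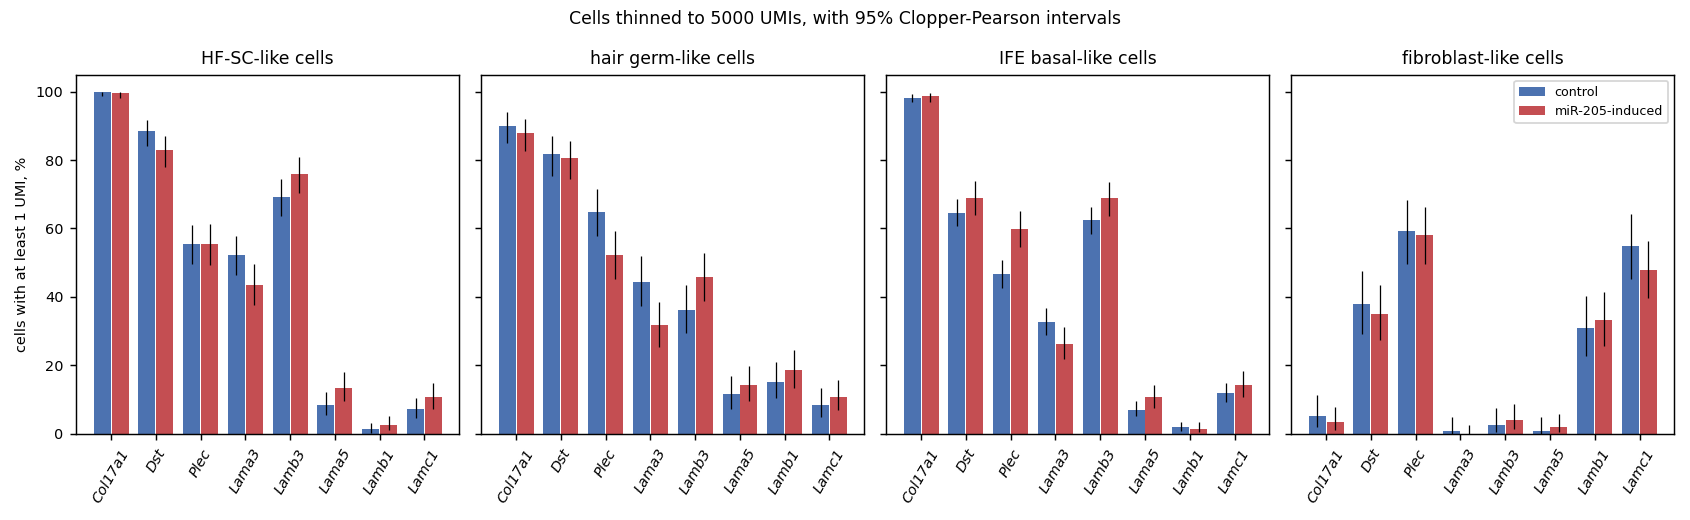
Share of cells with at least 1 UMI of each gene after thinning to 5000 UMIs, in the 3 main populations and in fibroblast-like cells, control in blue and induced in red, with 95% Clopper-Pearson intervals. Col17a1 is near its ceiling in HF-SC-like and IFE basal-like cells (at least 98.3%), Plec in IFE basal-like cells goes from 46.7% to 59.9%, and Lama3 in hair germ-like cells goes from 44.5% to 31.7%.

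Taken over all populations, no member of the plaque went one way. Over 22 populations with at least 20 UMIs, Col17a1 was lower in 14 and higher in 8, with 7 and 5 intervals that leave out no change. Dst was lower in 8 and higher in 14 of 22 (7 intervals above no change), and HF-SC-like cells gave 1 of only 3 intervals below no change, the others being macrophage-like and melanocyte-like cells. Plec was higher in 15 of 22, with 6 intervals above no change (IFE basal-like, IFE suprabasal-like and cycling-like cells and clusters 2, 12 and 14) and 3 below.

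The other 39 genes of the basement membrane and its receptors were held to the same limit, a log2 ratio of 0.32 with an interval that leaves out no change. In HF-SC-like cells 25 were tested, 2 were lower (Itgb1 and Smoc2) and 2 higher (Cd151 and Fermt1), or 8% each way beside 8.24% and 10.2% of all genes. Itgb1, the β1 integrin chain that pairs with several laminin-binding α chains, fell from 483 to 327 CPM (−0.56, −0.68 to −0.45). Cd151, a tetraspanin that partners laminin-binding integrins, rose from 93.5 to 127 CPM (0.44). In hair germ-like cells 27 were tested, 2 were lower (Itga3 and Itgb1) and 4 higher (Erbin, Fras1, Sparc and Tinagl1), or 7.41% and 14.8% beside 10.3% and 12.3% of all genes. Of the 44 induced Tinagl1 UMIs 72.7% lay in 5 cells, against 40% of 15 in the control, and for Sparc that share went from 10.5% to 22.9%. Itga3, the integrin chain that binds laminin-332 and laminin-511 outside hemidesmosomes, went from 95.3 to 67.8 CPM (−0.49, −0.78 to −0.20), and Erbin, a plaque-associated scaffold, from 51.1 to 76.3 (0.57, 0.24 to 0.92). Fras1, a matrix protein of the Fraser complex, had 17 and 44 UMIs.

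In IFE basal-like cells 26 were tested, 1 was lower (Hspg2, which encodes perlecan) and 1 higher (Tinagl1), or 3.85% each way beside 6.37% and 8.99% of all genes. The median log2 ratio of the tested genes was −0.05, 0.10 and 0.07 in the 3 populations in that order. Itga6, the α6 integrin chain of hemidesmosomes, whose 3′ UTR holds the seed match, stayed within 0.32 on the log2 scale. It went from 370 to 417 CPM (0.17) in HF-SC-like, from 429.7 to 372 (−0.21) in hair germ-like and from 431 to 455 (0.08) in IFE basal-like cells, and α6 integrin was itself a surface protein used in sorting.

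Some of the remaining genes were highest in dermal populations and others in epithelial ones, and some were held in both. Lama2, Lama4, Lamb2, Col4a1, Col4a2, Nid1 and Hspg2 were highest in fibroblast-like cells among the 23 populations with at least 20 cells per library, which leave out Schwann-like and endothelial-like cells, as were Lamb1 and Lamc1. For Lama4 the fibroblast-like cells (98.8 and 118 CPM) were not apart from cluster 16 (90.6 and 99.8). Sebaceous gland-like cells held 88.9 and 79.2 CPM of it. Lamc3 was highest in dermal papilla-like cells at 175 and 225 CPM. Col7a1, the anchoring fibril collagen, was highest in cluster 14 at 75.1 and 90.2 CPM, and Col4a3 and Col4a4 were highest in cluster 13, at 35.9 and 29.6 CPM and at 88.5 and 65.3 CPM. Npnt, a basement membrane protein of the bulge, was highest in HF-SC-like clusters, at 108 and 89.8 CPM in cluster 1.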

How the data were processed

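The deposited values are raw counts: whole-number UMIs of each gene in each barcode, which the authors made with Cell Ranger and did not normalize. The matrix header gives software version 3.0.1, and the submitters' processing notes name build mm10. For the annotation, nothing is given in the sources used here. Cells with more than 200 and fewer than 5000 genes and under 10% mitochondrial UMIs were kept, as the study states. Integration and clustering used Seurat 5.3.0 under R 4.3.3 (2000 variable genes, 30 dimensions, resolution 0.8), with the members and 40 pathway genes left out of the variable genes. Of these 40, 39 were analysed, and the other is not reported here. A cluster was named where at least 3 markers were raised 2-fold, at least 1 was among its top 10 genes by fold and no other class had more there. Top genes were taken among those in at least 25% of its cells, a limit set after the values were seen.

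For each population the UMIs of a library were added up and expressed as CPM. Log2 ratios (induced over control) used a pseudocount of 0.5 UMIs and at least 20 UMIs over both libraries. Exact conditional intervals at 95% were used for ratios, Poisson for levels and Clopper-Pearson for shares, and a share of 0 was bounded by 3 counts. Cells were thinned to 5000 UMIs for shares, which left out 304 control and 328 induced cells. PCR duplicates are merged by UMIs, and intervals cover counting error only. Scripts were checked on simulated data. Depth is given as total counts per library in the text.

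The members, marker lists and pathway lists were chosen with earlier results of these data known. Named genes are the members, pathway genes past a log2 ratio of 0.32 with an interval that leaves out no change, the genes most correlated with each member, and the highest population of pathway genes, the last chosen after the values were seen. Alternatives covered the cell filter, doublets, scaling, minimum counts, clustering and high cells. Doublets were kept in the main analysis. Scrublet in scanpy 1.11.5 called only 4 control and 5 induced barcodes, so an alternative left out the 124 and 105 highest-scoring ones. Gene positions are from RefSeq (GRCm38.p6), and 3′ UTR coordinates from GENCODE vM1 on NCBIM37. The microRNA sequence is from RefSeq.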

Additional observations from a re-analysis of the deposited data

Results flagged for a closer look

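Some members and 1 partner moved in opposite directions in 2 of the main populations, with counting intervals on either side of no change. How many of all genes tested do so was not counted, so this is not shown to be particular to these genes. The difference between populations was not tested, since there was 1 library per group. On the log2 scale, induced over control, HF-SC-like cells gave −0.43 for Dst (−0.52 to −0.33) and IFE basal-like cells 0.17 (0.08 to 0.26). Col17a1 was at −0.27 (−0.37 to −0.17) in hair germ-like cells and 0.083 (0.04 to 0.13) in IFE basal-like cells. Plec was at −0.17 (−0.34 to −0.003) in hair germ-like and 0.57 (0.47 to 0.68) in IFE basal-like cells, where the first value turned sign under other clusterings. Itga6 was at −0.21 (−0.34 to −0.08) in hair germ-like, 0.077 (0.007 to 0.15) in IFE basal-like and 0.17 (0.06 to 0.29) in HF-SC-like cells.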

How the results depend on the processing

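Of 300 values of single members under the alternatives, 286 stayed within the counting interval of the main value. The sign turned in 9, in 3 where the main interval leaves out no change (all Plec in hair germ-like cells) and in 6 where it includes no change. Part of the 300 could not move, since a changed minimum of UMIs only chooses which genes are tested. Leaving out shared barcodes also changed no value in hair germ-like cells. A median-of-ratios size factor gave 3 members higher in HF-SC-like cells, where Lamb3 was at 0.31. Under 5% mitochondrial UMIs, the members' median log2 ratio in HF-SC-like cells turned from 0.25 to −0.065 (2 members higher), and hair germ-like cells, 54 and 43 in number, had 0 members lower and 4 higher, with Plec at 0.20. Resolution 1.2 left 1 member lower in HF-SC-like cells. In hair germ-like cells it left 0 lower, with Plec at 0.032 and Lama3 to Lamb3 at −0.34. Keeping the members among the variable genes gave 0 lower there, Plec at 0.062 and Lama3 to Lamb3 at −0.36. Totals without mitochondrial and ribosomal genes, and leaving out the 5 cells with most UMIs, each gave 2 members higher in hair germ-like cells. A minimum of 100 UMIs removed Lamb1 and left 0 lower in IFE basal-like cells. The cause was not tested, apart from the smaller numbers of cells or genes. The added alternatives (no shared barcodes, no stromal UMIs, both HF-SC-like clusters) were chosen after seeing the data and changed no count of members past 0.32. No paired analysis was possible because each group had 1 library. Depth limits Lamb1, Lama5 and Lamc1 most, at under 100 UMIs per library in HF-SC-like cells.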

Other observations

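T cell-like cells held Lamb3 with little Lama3. The cluster, led by Trdc and Tcrg-C1, which encode chains of the γδ T cell receptor, had 24 Lamb3 UMIs in the control and 22 in the induced library (182 and 155 CPM), in 16 of 29 and 13 of 28 cells. That was near the level of inner bulge-like cells (183 and 203 CPM). Lama3 had 0 and 1 UMI there, Dst 0 and 0, and Col17a1 1 and 3, whereas in inner bulge-like cells Col17a1 UMIs outnumbered those of Lamb3 at 954 to 234 in the control. Langerhans or antigen-presenting-like cells held 5 and 10 Lamb3 UMIs beside 32 and 24 of Col17a1.

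Macrophage-like cells differed between libraries in epithelial genes. Col17a1 had 77 UMIs in 28 control cells and 2 in 33 induced cells, and Lamb3 15 and 0. In the control 96.1% of the Col17a1 UMIs lay in 5 cells. Plec, in contrast, had 122 and 123 UMIs there. In upper hair follicle-like cluster 6, Col17a1 rose from 23.7 to 51.2 CPM, with 38.5% and 55.7% of its UMIs in 5 cells of each library.

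Cluster 16, led by Ifnk and Plin2, held Dst at 480 and 566 CPM with Lamb1 at 22.1 and 30.2 CPM and Col17a1 at 159 and 144. Its ratio of Dst to Col17a1 UMIs was 3.01 and 3.93, against 0.460 and 0.343 in HF-SC-like cells.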
